A study of Mus musculus with 6 samples.

Results

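Endothelial cells of the healing mouse enthesis were examined by single-cell RNA sequencing, and they made up 2762 of the 85339 cells that passed the limits on depth and mitochondrial content. A cell is a barcode with at least 1000 unique molecular identifiers (UMIs, each counting 1 captured RNA molecule), at least 200 genes and at most 10% mitochondrial UMIs. It was called endothelial when it held at least 1 UMI of Cdh5, which encodes the junction protein VE-cadherin, and at least 3 UMIs of Pecam1, Egfl7 and Esam together. Cells with any UMI of the leukocyte gene Ptprc were left out, and so were cells in which Col1a1, Col1a2 and Col3a1 (collagens I and III) or S100a8 and S100a9 (neutrophil proteins) reached 1% of UMIs. The cells were chosen by these measured values, so the levels of the rule genes are given below as a description, without a test.

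Endothelial cells line every vessel. Arteries, capillaries, veins and lymphatic vessels differ in their genes: fenestrated and venular vessels carry the diaphragm protein encoded by Plvap, large and venous vessels store von Willebrand factor (Vwf), and capillaries of muscle, fat and heart express the fatty acid-binding protein Fabp4. The enthesis, where tendon inserts into bone, is poorly vascularised when healthy, and vessels grow into it after a tear. Endothelial cells also receive inflammatory signals: they carry the interleukin-1 (IL-1) receptor Il1r1, and in response they display adhesion molecules and chemokines that recruit neutrophils and monocytes. NLRP3 is the sensor of the inflammasome, the complex that matures IL-1β in myeloid cells.

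The comparison was between wild-type controls and Nlrp3-/- mice, each represented by 3 libraries. All mice had undergone rotator cuff tear and repair at 12 to 14 weeks of age, and the entheses were harvested at 7 dpi (days post injury) under a microscope and pooled. The controls were purchased C57BL/6 mice and the knockout line came from a commercial supplier, and neither the number of mice behind a library nor whether the groups shared litters is given in the sources used here. Every library came from operated mice, so there was no uninjured group. The sample titles give the knockout of replicates 2 and 3 as Nlrp3, whereas their genotype fields name Nlrp4 and Nlrp5; the titles were followed, and no Nlrp3 UMI was found in endothelial cells of any of the 3 knockout libraries.

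The libraries held 97042713 to 134901999 UMIs over all barcodes. Endothelial cells numbered 373, 658 and 219 in wild-type replicates 1, 2 and 3, and 600, 317 and 595 in knockout replicates 1, 2 and 3, and together they held 31182611 UMIs. Their median depth was 12188, 9584.5 and 10674 UMIs per cell in the wild-type libraries and 4741, 8533 and 7467 in the knockout libraries, so every knockout library was shallower per cell. No endothelial barcode was shared between 2 libraries. Expression in endothelial cells set wild-type replicate 3 apart from its group: on the first principal component, which carried 45.1% of the variance, the wild-type libraries lay at -36.2, -31.3 and 3.65 and the knockout libraries at 18.2, 28.7 and 16.9. The knockout libraries carried Xist and lacked Y-linked transcripts, and the wild-type libraries showed the reverse, so genotype and sex cannot be told apart in any comparison below.

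Endothelial cells made up 2.95% (Wilson 95% confidence interval 2.67% to 3.26%), 4.24% (3.94% to 4.57%) and 2.21% (1.94% to 2.52%) of all cells in the wild-type libraries. In the knockout libraries they made up 2.72% (2.51% to 2.94%), 2.68% (2.40% to 2.99%) and 4.44% (4.10% to 4.80%). These intervals cover counting error only. The groups overlapped, with means of 3.13% ± 1.03 and 3.28% ± 1.00 (SD, n = 3 each), a difference of 0.145 percentage points (exact two-sided permutation test, p = 0.9). The direction turned to -0.317 without wild-type replicate 3, to -0.434 without knockout replicate 3 and to -1.34 over cells without Ptprc and with under 1% S100a8 and S100a9 UMIs. With 3 libraries against 3, this test cannot give a p below 0.1. The rule held 4125 cells before its exclusions. Ptprc removed 743 of them, collagen 545 and S100a8 and S100a9 75, and 417 of the 545 cells removed by collagen came from knockout replicate 1.

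The vascular label was checked with genes that the rule did not use, against 3 comparison classes of the same libraries: mesenchymal cells (at least 5% collagen UMIs), macrophages (at least 3 UMIs of C1qa, C1qb and C1qc) and neutrophils (at least 5% S100a8 and S100a9 UMIs). Plvap stood at 915 to 1131 CPM (UMI counts scaled to a total of 1000000 over the class) in the 6 endothelial libraries and at no more than 11 in any library of the other classes. Tie1, an orphan receptor of the angiopoietin system, stood at 233 to 252 against at most 1.79. Kdr, the main receptor for vascular endothelial growth factor (VEGF), stood at 349 to 561 against at most 8.03, and Emcn, a sialomucin of veins and capillaries, at 552 to 839 against at most 2.94. The other classes were required to hold no Cdh5 UMI, which leaves out cells that carry endothelial transcripts and so partly fixes these gaps. Flt1, the VEGF decoy receptor, stood at 308 to 606 against at most 3.39. Cd34 was shared more widely, with 515 to 685 in endothelial cells and 36.8 to 106 in mesenchymal cells.

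**Figure D1:**
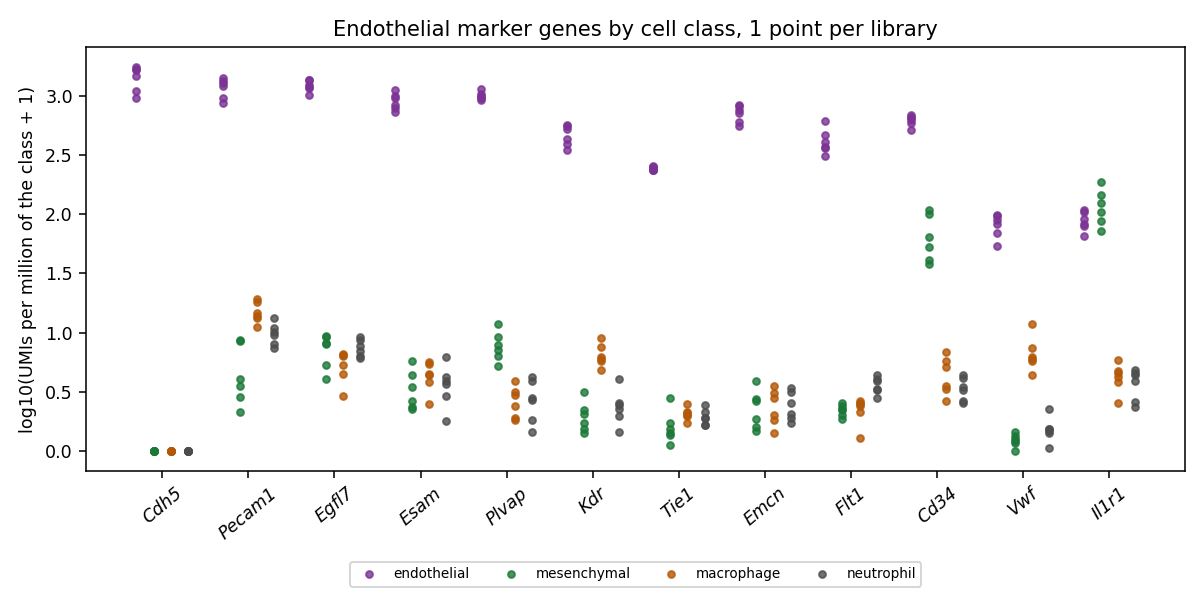
Level of 12 genes in endothelial, mesenchymal, macrophage and neutrophil cells, as log10 of CPM of the class plus 1 (y axis), with 1 point for each of the 6 libraries. Cdh5, Pecam1, Egfl7 and Esam chose the cells (Cdh5 was required to be 0 in the other classes); Plvap, Kdr, Tie1, Emcn and Flt1 did not, and they lie apart from the other classes, whereas Il1r1 is as high in mesenchymal cells.

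Among the rule genes, Cdh5 reached 955 to 1757 CPM in endothelial cells, Pecam1 868 to 1412, Egfl7 1015 to 1366 and Esam 730 to 1117. At the edge of the rule, the 123 cells with exactly 1 Cdh5 UMI had a median Plvap level over libraries of 462 CPM, against 989 in the 2639 cells with 2 or more. The 425 cells that met every other condition but had no Cdh5 UMI had a median of 17.1, and the 125 cells with 1 or 2 UMIs of Pecam1, Egfl7 and Esam had 35.3. Knockout replicate 1 differed from these medians: it held 75 of the 125 cells, with Plvap at 417 CPM, and its 73 cells without Cdh5 had 186 CPM, against at most 54.3 and 29 in the other libraries.

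The purity of the endothelial cells was described with marker lists of 10 other cell types, summed per library. Fibroblast markers took 529 to 888 CPM in the wild-type libraries and 947 to 1474 in the knockout libraries, so the groups did not overlap. Erythroid markers took 237 to 464 and 11.1 to 188, again without overlap. Macrophage markers took 220 to 289 in 5 libraries and 905 in knockout replicate 1, and chondrocyte markers took 9.69 to 37.7 in 5 libraries and 1131 in knockout replicate 2. Neutrophil, mural, T and B cell, Schwann cell and platelet markers overlapped between groups, the first at 348 to 1068 and the second at 502 to 836, with Gp6, Tubb1 and Treml1 of the platelet list at 0. Skeletal muscle markers stayed at 3.03 to 6.21, with Myh4 and Myh1 at 0. Neutrophil granule genes put free RNA at 0.643% to 1.78% of the endothelial UMIs. The part of these signals in the results below was not tested, apart from the fits without cells that held mural or C1q UMIs (921 cells) or over 1% hemoglobin UMIs (8 cells) and with the free RNA subtracted.

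To compare vessel genes between cells of unequal depth, every cell was thinned to 1000 UMIs. Plvap was then detected in 59.2%, 58.5% and 60.3% of endothelial cells in the wild-type libraries and in 54.2%, 56.5% and 58.0% in the knockout libraries. Every knockout library lay below every wild-type library, with means of 59.3% ± 0.886 and 56.2% ± 1.92 (SD, n = 3 each; exact two-sided permutation test, p = 0.1, the smallest this design allows). Without thinning, the shares were 83.0% to 97.7%, and the groups then overlapped. In the other classes at most 1.44% of cells held a Plvap UMI at the same thinned depth (median depths before thinning were 2563 to 16588.5 UMIs in mesenchymal cells, 4746 to 7974.5 in macrophages and 1918 to 3990 in neutrophils). The separation of the groups was lost after thinning to 2000 UMIs (exact permutation p = 0.3), with a requirement of 2 UMIs (p = 0.5) and without the cells that held mural, C1q or many hemoglobin UMIs (p = 0.4). Thinning to 2000 UMIs also left out the cells below that depth. These were 93 of 600 endothelial cells in knockout replicate 1 and 5 to 22 in each other library.

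Vwf was detected in 11.3%, 6.23% and 6.85% of wild-type endothelial cells and in 14.3%, 10.1% and 10.9% of knockout cells. The groups overlapped through wild-type replicate 1 (means 8.11% ± 2.74 and 11.8% ± 2.25, SD, n = 3 each; exact two-sided permutation test, p = 0.3). After thinning to 2000 UMIs, with the cells below that depth left out as above, the groups no longer overlapped (means 13.7% ± 1.17 and 16.5% ± 1.18, exact permutation p = 0.1). Without any thinning the difference in means fell from 3.67 to 1.04 percentage points (exact permutation p = 0.9). Without thinning the shares were 27.9% to 39.7%, and the other classes showed at most 0.617%. Fabp4 was detected in 85.0%, 91.0% and 88.6% of wild-type cells and in 93.2%, 88.0% and 90.1% of knockout cells, again with overlap (means 88.2% ± 3.04 and 90.4% ± 2.59, SD, n = 3 each; exact two-sided permutation test, p = 0.5), and without thinning in 93.6% to 97.7%. Fabp4 UMIs also appeared in 5.66% to 22.0% of mesenchymal cells, 5.90% to 10.4% of macrophages and 1.40% to 6.45% of neutrophils, far below the endothelial shares.

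**Figure D2:**
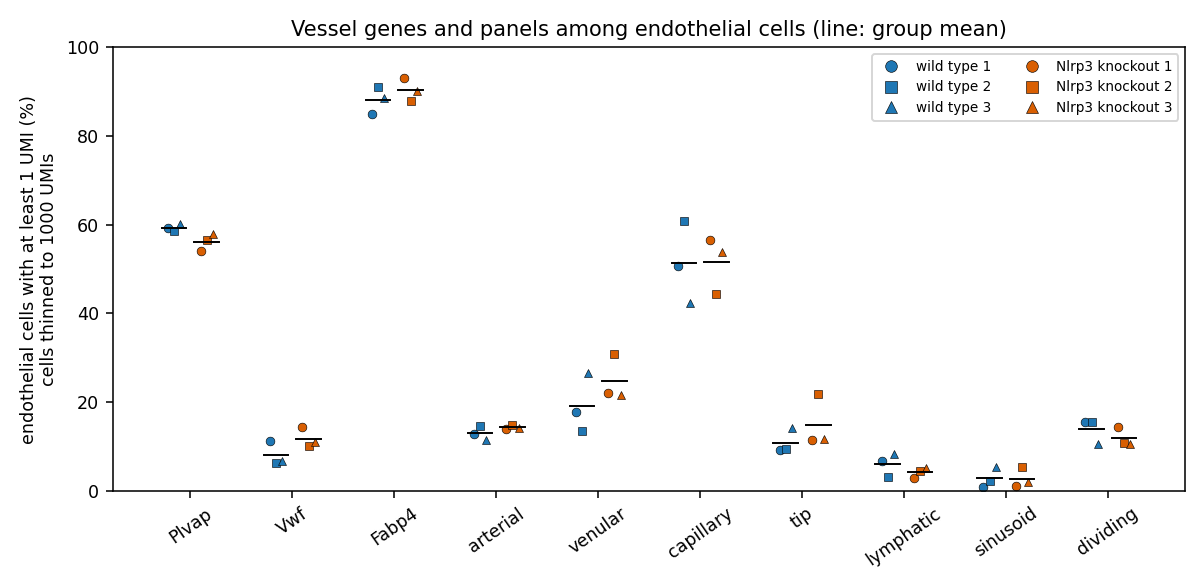
Share of endothelial cells (y axis, percent) with at least 1 UMI of Plvap, Vwf, Fabp4 or any gene of 7 vessel panels, after each cell was thinned to 1000 UMIs; points are libraries and lines are group means. Fabp4 lies at 85.0% to 93.2%, Plvap at 54.2% to 60.3% and Vwf at 6.23% to 14.3%, and only Plvap has no overlap between the groups.

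In the endothelial cells thinned as above, the 3 genes were detected in uneven combinations. A gene missing from a combination had no UMI left after thinning, which does not show that the cell lacked it. Without thinning, Plvap was detected in 83.0% to 97.7% of a library and Vwf in 27.9% to 39.7%. Many cells counted here without Plvap or Vwf therefore held it at full depth. The commonest combination was Plvap and Fabp4 without Vwf, with 1321 cells (44.5% to 51.1% of a library), followed by Fabp4 alone with 901 cells (28.2% to 35.2%). All 3 genes were detected in 164 cells, none of them also in 164 cells, and Vwf and Fabp4 without Plvap in 98 cells. Plvap alone was detected in 95 cells, which were 6.43%, 3.80% and 4.11% of the wild-type libraries and 1.33%, 3.47% and 3.03% of the knockout libraries. These shares did not overlap between groups (exact two-sided permutation test, p = 0.1), whereas those of every other combination of the 3 genes did (p from 0.2 to 0.8). The combinations were not tested at another depth. Vwf without Fabp4 was detected in 7 cells that also held Plvap and 12 that did not. Few cells of any kind lacked Fabp4, and its share was higher with Vwf in 4 libraries and lower in 2.

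Further panels of vessel genes were counted in the same thinned cells, a cell being positive with at least 1 UMI of any gene of the panel. The arterial panel (the gap junction genes Gja4 and Gja5, the guidance gene Sema3g, the Notch target Hey1 and the kinase gene Bmx) marked 11.4% to 14.8% of endothelial cells, beside 4.56% to 8.6% of neutrophils, which do not form vessels. The venular panel (the chemokine-binding receptor Ackr1 and the selectins Selp and Sele) marked 17.7%, 13.5% and 26.5% of wild-type cells and 22.2%, 30.9% and 21.5% of knockout cells, and at most 2.70% of any other class. The capillary panel (Cd36, Gpihbp1, Rgcc and Btnl9) marked 42.5% to 60.9% of endothelial cells, but also 18.0% to 26.9% of macrophages and 22.6% to 28.5% of neutrophils. The tip-cell panel (Apln, Esm1 and Angpt2, genes of sprouting vessels) marked 9.12%, 9.42% and 14.2% of wild-type cells and 11.5%, 21.8% and 11.6% of knockout cells. The genotype groups overlapped in each of the 4 panels and in the 3 that follow, with exact two-sided permutation p-values from 0.3 to 1.

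The lymphatic panel (the master transcription factor gene Prox1, with Mmrn1, Ccl21a and Reln) marked 126 cells, 3.00% to 8.22% of a library. The sinusoid panel (Stab2, Dnase1l3 and Gpm6a) marked 64 cells, 0.804% to 5.48%, and the number per library was as low as 3. The dividing panel (Mki67, Top2a, Cdk1 and Birc5) marked 15.5%, 15.5% and 10.5% of wild-type and 14.5%, 10.7% and 10.6% of knockout endothelial cells. It marked 5.80% to 10.1% of mesenchymal cells. In macrophages its share was 5.64% to 7.10% in wild-type and 9.36% to 10.1% in knockout libraries. In neutrophils it was 9.65% to 14.45% in wild-type and 17.95% to 24.25% in knockout libraries. Lymphatic-panel cells differed from the remaining endothelial cells in both Fabp4 and Plvap: Fabp4 was detected in 9.68% to 30.0% of them, by library, against 90.2% to 95.2% of the others, and Plvap in 16.7% to 44.0% against 55.3% to 62.2%. Dividing genes were detected in 12.9% to 55.6% of lymphatic-panel cells against 9.45% to 15.2% of the others. These directions held in 6 of 6 libraries, on 14 to 31 lymphatic-panel cells a library.

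Arterial and venular genes were seldom detected together, with 14 cells positive for both among 386 arterial-panel and 572 venular-panel cells. Plvap was detected in 38.3% to 52.1% of arterial-panel cells and 56.0% to 61.9% of the others, and in 60.9% to 74.2% of venular-panel cells and 52.2% to 57.7% of the others. Vwf was detected in 15.5% to 27.3% of venular-panel cells against 3.73% to 10.9% of the others. Among the 281 cells with Vwf, 40.7% to 60.0% were positive for the venular panel, against 11.7% to 27.7% of cells without Vwf, and 4.76% to 8.14% for the dividing panel, against 10.8% to 16.9%. These pairs, too, had the same direction in each of the 6 libraries. Cells with Vwf were shallower before thinning, at a median of 4439 to 7624 UMIs against 4766 to 12446 for cells without it.

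Genes that went with each vessel gene were named when they had the same direction in 6 of 6 libraries and reached 100 CPM on the higher side, by the median log2 difference over libraries (thinned cells, 10 CPM added). Because the same cells define the classes, these values are a description. Cells with Plvap were higher in Slco2a1, the prostaglandin transporter (median log2 difference 0.73, range 0.47 to 1.12), in Lrg1, a vessel-derived modulator of TGF-β signalling (0.59, 0.23 to 0.92), in the basement membrane collagen Col15a1 (0.58, 0.28 to 1.08) and in Ackr1 (0.57, 0.42 to 1.45). They were lower in Ccl21a, the chemokine of lymphatic vessels (-1.71), in Acta2 and Rgs5, genes of mural cells (-1.57 and -1.18), and in the arterial genes Gja4 (-0.99), Mgp (-1.06) and Sema3g (-0.98). The genes lower with Plvap thus included lymphatic, mural and arterial markers. Mural markers took 502 to 836 CPM of the endothelial sums, and their part in this difference was not tested.

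Cells with Vwf showed larger differences. Ackr1 was higher by a median of 2.33 log2 units (1.12 to 2.57), Selp, the selectin stored with von Willebrand factor, by 1.72 (1.00 to 2.09), Lepr, the leptin receptor, by 2.04 (0.95 to 2.74), the IL-6 family signal transducer Il6st by 1.48 (0.71 to 1.82) and the proteoglycan Vcan by 1.42 (1.08 to 2.59). The receptor Il1r1 was higher by 1.31 (0.28 to 1.88), at a mean over libraries of 219 CPM in cells with Vwf and 85.1 in cells without. Genes lower in cells with Vwf were Ccl21a (-4.78), the basement membrane gene Nid2 (-1.71), Serpine2 (-1.41) and Gpihbp1, which anchors lipoprotein lipase on capillaries (-1.23).

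Cells with Fabp4 were higher in its relative Fabp5 (3.22, 2.25 to 6.15), in Cd36, the fatty acid translocase (2.49, 1.66 to 5.82), in Cd300lg (3.13, 1.99 to 4.42), in the junction gene Jam2 (3.07, 1.84 to 4.87), in Sele (2.62) and in the chemokine Cxcl12 (1.89). The hemoglobin gene Hbb-bs was also among them (2.65), in libraries with 11.1 to 464 CPM of erythroid markers, whose part was not tested. Cells without Fabp4 were rich in lymphatic genes: with Fabp4, the median log2 difference was -7.13 for Ccl21a, at means of 27.7 and 3504 CPM, -4.08 for Mmrn1, -3.86 for Prox1, -3.79 for Reln, -3.45 for Lyve1, the hyaluronan receptor of lymphatic vessels, and -3.30 for Pdpn, or podoplanin. Lymphatic-panel cells also held 20 of the 64 sinusoid-panel cells.

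**Figure D3:**
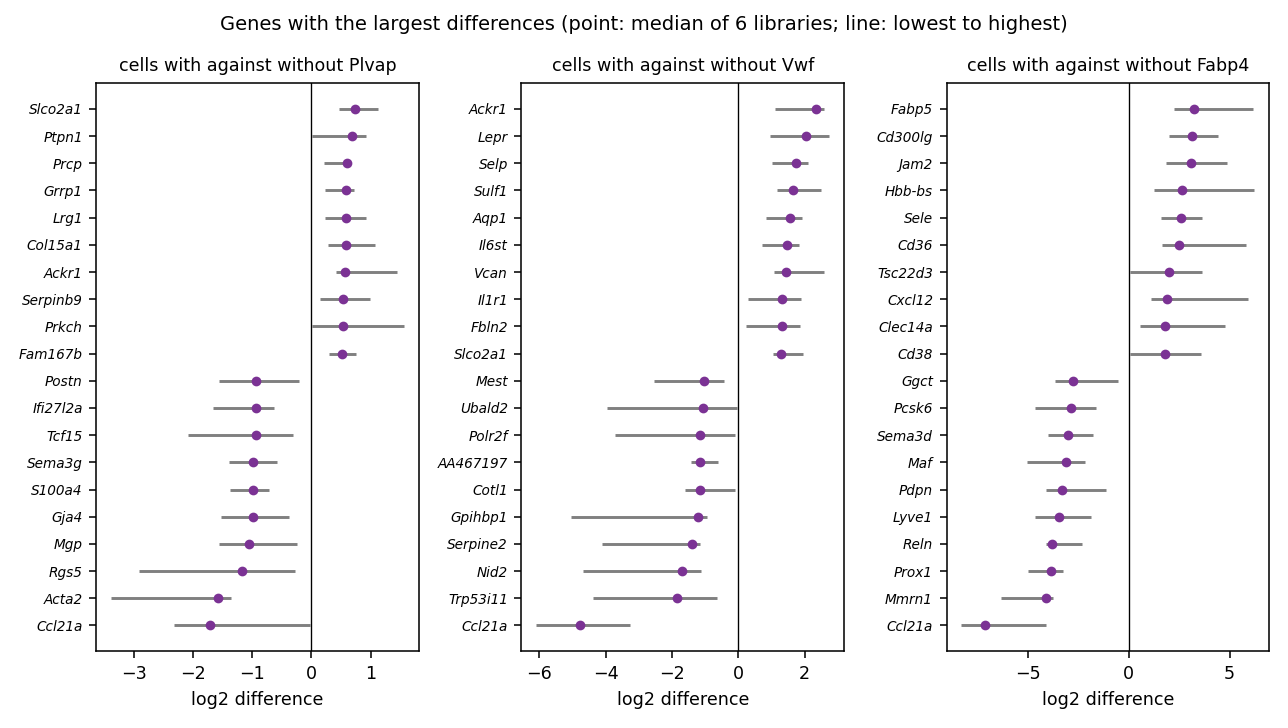
Genes with the largest differences between endothelial cells with and without Plvap (left), Vwf (middle) and Fabp4 (right); the x axis is the log2 difference in CPM (10 added), points are medians over 6 libraries and lines run from the lowest to the highest library. Differences are below 1 for genes higher with Plvap, reach 2.33 for Ackr1 with Vwf, and run from 3.22 for Fabp5 to -7.13 for Ccl21a with Fabp4.

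The other panels differed in listed genes that had not been used to define them. Arterial-panel cells were higher in the elastic fibre gene Fbln5 (median log2 difference 1.91), in Edn1, which encodes endothelin-1 (1.89), and in Nts, or neurotensin (1.92, from 1.27 to 3.72), and lower in Ackr1 (-3.64), Sele (-2.92), Il1r1 (-1.77) and the leukocyte ligand Icam1 (-1.55). They were also higher in the mural genes Rgs5 (1.96, from 1.58 to 2.28) and Acta2 (1.46, from 0.63 to 4.73) in 6 of 6 libraries, and the part of the mural markers in the endothelial sums was not tested. Venular-panel cells were higher in Vwf (2.05), Il6st (1.92) and Glycam1, a mucin ligand for L-selectin (2.15), and lower in Gja4 (-3.29), Cxcl12 (-2.39) and the tight junction gene Cldn5 (-2.04). Il1r1 thus went with Vwf and against the arterial panel in every library. Tip-panel cells were higher in Igfbp3 (1.48) and Cxcr4 (1.01), and lower in Cd36 (-1.51). Lymphatic-panel cells were higher in Lyve1 (4.31), Pdpn (4.38) and Flt4, the receptor for VEGF-C (3.91), and lower in Cxcl12 (-5.87). Capillary-panel cells were higher in Lpl, or lipoprotein lipase (2.11), Cd300lg (1.86) and Fabp4 (1.14).

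Genotypes were compared on UMIs summed over the endothelial cells of each library and scaled to CPM by trimmed mean of M-values (TMM), with the edgeR quasi-likelihood test and Benjamini-Hochberg adjustment over all genes tested. Values below are given for wild-type replicates 1, 2 and 3 and then knockout replicates 1, 2 and 3, and log2 fold changes are knockout over wild type with their standard error. The threshold of 0.05 was passed by 31 of 11712 genes (0.265%), of which 13 were higher (0.111%) and 18 lower (0.154%) in Nlrp3-/- mice. At an unadjusted p under 0.05, 1122 genes were higher (9.58%) and 1347 lower (11.5%). Without wild-type replicate 3, 2553 of 12184 genes passed the adjusted threshold (21%), 1200 higher (9.85%) and 1353 lower (11.1%), so the count rested on that library. Of the 31 genes, 7 lay on X or Y, 6 on chromosome 11 with Nlrp3, 17 on other autosomes and 1 on an unplaced scaffold. The tested genes were not counted by place, so these numbers carry no comparison with the background.

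The targeted gene was present at a low level in wild-type endothelial cells. Nlrp3 stood at 5.70, 9.11 and 3.63 scaled CPM in the wild-type libraries, from 29, 72 and 11 UMIs, and at 0 in all 3 knockout libraries. The difference passed the test (edgeR adjusted p = 0.0174), and Nlrp3 was at least 9.55-fold lower in the knockout libraries, taking 3 counts per library as the floor. On the unscaled scale, wild-type libraries held 3.66 to 8.41 CPM in endothelial cells, 3.85 to 7.44 in mesenchymal cells, 68.2 to 116 in macrophages and 185 to 620 in neutrophils. Free RNA from other cells carried Nlrp3 as well, at 93.6, 174 and 165 CPM, which corresponds to 1.28, 2.96 and 1.06 in the endothelial sums. After the free RNA was subtracted the difference still passed (edgeR adjusted p = 0.0240). It did not pass without wild-type replicate 1 (adjusted p = 0.0555), knockout replicate 1 (0.0560) or knockout replicate 3 (0.0858).

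The sex-linked genes followed the libraries without overlap. Xist, the RNA that silences an X chromosome, stood at 0, 0.127 and 0 against 1363, 1384 and 1207, and Ddx3y, a Y-linked helicase gene (chrY:1260771-1286629, GRCm38), at 66.4, 67.6 and 85.8 against 0 in each knockout library, at least 114-fold lower. The Y-linked Eif2s3y, Uty and Kdm5d were also at 0 in the knockout libraries. The X-linked genes that escape silencing were higher in each knockout library but did not pass: Kdm6a stood at 18.1, 21.0 and 31.0 against 58.1, 46.5 and 51.4 (edgeR adjusted p = 0.0505) and Kdm5c at 19.8, 22.6 and 27.1 against 37.2, 45 and 47.3 (adjusted p = 0.0632).

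Apart from the sex-linked genes, 6 genes named by size and level were lower in Nlrp3-/- mice. Tspan8, which encodes a tetraspanin membrane protein (chr10:115816832-115849893), stood at 77.2, 78.1 and 67.6 against 14.6, 11.3 and 9.85, with a log2 fold change of -2.65 ± 0.17 (SE; edgeR adjusted p = 0.000107). No library of either group came near the other group. In mesenchymal cells and macrophages Tspan8 was too low to be tested on its own, and the interaction with mesenchymal cells did not pass (-1.82, edgeR adjusted p = 0.459). Wdfy1, an endosomal adaptor of Toll-like receptor signalling (chr1:79702262-79776143), stood at 87.6, 87.4 and 111 against 33.2, 30.6 and 31.4 (-1.58 ± 0.14, adjusted p = 0.000933). It was lower in macrophages too (log2 fold change -1.74, edgeR adjusted p = 0.000635), and in mesenchymal cells the value was -1.62 without passing (adjusted p = 0.111).

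Tpm3-rs7 (chr14:113314608-113316754) fell from 209, 99.1 and 247 to 4.18, 2.83 and 2.31 (log2 fold change -5.91 ± 0.41, edgeR adjusted p = 0.000183); it is a sequence copy of the tropomyosin gene Tpm3, so the assignment of its reads is uncertain. Mrps12, a mitochondrial ribosomal protein gene (chr7:28739641-28741820), stood at 104, 107 and 82.2 against 47.6, 46.0 and 50.5 (-1.03, adjusted p = 0.0117), and Psmg4, a proteasome assembly chaperone gene (chr13:34162964-34178173), at 111, 93.1 and 107 against 53.7, 51.7 and 48.0 (-1.02, adjusted p = 0.00591). Lack of overlap between the groups was a condition for naming these genes. Guk1, or guanylate kinase (chr11:59183875-59192212), 0.358 Mb from Nlrp3, stood at 132, 124 and 107 against 76.5, 71.2 and 69.4 (-0.74, adjusted p = 0.0484). Guk1 lost its call in 12 of 18 alternative analyses, among them those without each library except wild-type replicate 3 (edgeR adjusted p from 0.114 to 0.26). Mrps12 lost it without each of the same libraries (0.0565 to 0.0877) and Psmg4 without knockout replicate 3 (0.0858), while Tspan8, Wdfy1 and Tpm3-rs7 passed in all 18.

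Higher in Nlrp3-/- mice were 4 named genes besides Xist. Gmfg, which encodes a regulator of branched actin (chr7:28437447-28448233), stood at 64.4, 47.6 and 42.6 against 172, 125 and 155 (log2 fold change 1.54 ± 0.18, edgeR adjusted p = 0.00526); free RNA held it at 387, 235 and 272 against 353, 330 and 348 CPM, the call was kept when that was subtracted (adjusted p = 0.00364), and of 18 alternative analyses it was lost in 1, without knockout replicate 3 (adjusted p = 0.0519). Itgav, the integrin αV subunit that binds vitronectin and other matrix proteins (chr2:83724397-83806916), stood at 34.8, 34.9 and 39.9 against 65.3, 61.7 and 65.1 (0.82 ± 0.12, adjusted p = 0.0225). Itgav varied little within a group but lost its call in 8 of 18 alternative analyses, among them those without each library except wild-type replicate 3 (edgeR adjusted p from 0.0923 to 0.184). The fibroblast markers, at 529 to 888 CPM in wild-type and 947 to 1474 in knockout libraries, moved with it, and their part was not tested. AC149090.1, on an unplaced scaffold, stood at 15.9, 19.7 and 16.8 against 43.0, 53.7 and 46.8 (1.44 ± 0.15, adjusted p = 0.0033). Igkc, the immunoglobulin κ constant region of plasma cells (chr6:70726435-70726966), stood at 25.7, 11.3 and 12.5 against 211, 73.8 and 79.1 (2.87 ± 0.45, adjusted p = 0.0405); free RNA held it at 373 to 3852 CPM, and the call was lost when that was subtracted (edgeR adjusted p = 0.106), without wild-type replicate 2 (0.141), without knockout replicate 3 (0.0746) and without cells above the 95th percentile of UMIs (0.0704), which are 4 of 18 alternative analyses.

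**Figure D4:**
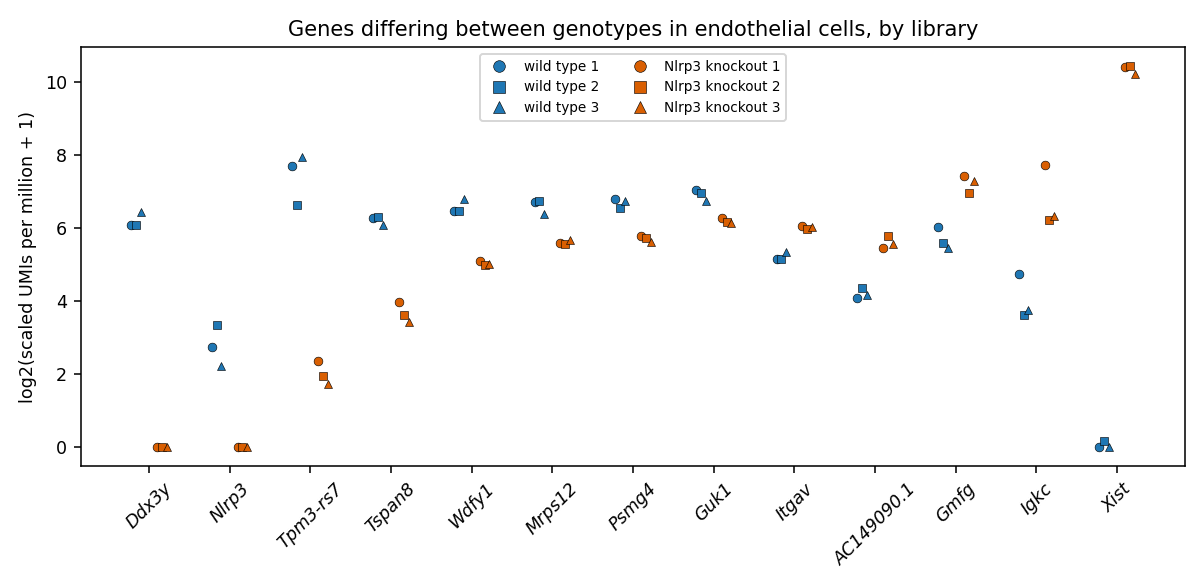
Scaled expression (y axis, log2 of TMM-scaled CPM plus 1) of Nlrp3 and the 12 genes named by size and level in the endothelial cells of each library. Wild-type and knockout points do not overlap for any gene, which was a condition for naming the 12. Xist and Ddx3y mark the sex difference that runs with genotype. Tspan8 is higher in the wild-type libraries at 67.6 to 78.1 against 9.85 to 14.6 scaled CPM.

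Of these 31 genes, 16 of the 30 that could be tested also passed in mesenchymal cells (21 of 13753 genes passed there, 0.153%), and 17 of 28 in macrophages (51 of 11528, 0.442%). The sign was that of endothelial cells in 30 and 26 genes. Tpm3-rs7 (log2 fold changes -6.14 and -6.28) and AC149090.1 (1.12 and 1.23) passed in both classes. Mrps12 (-1.03 and -0.87) and Igkc (2.72 and 3.29) moved the same way in both without passing. Guk1 stood at -0.66 in mesenchymal cells, without passing, and at 0.003 in macrophages. The classes come from the same libraries, so they do not repeat the comparison independently. The plakophilin gene Pkp2, a desmosome component that was singled out after its values had been seen, stood at 6.29, 6.70 and 12.2 against 0.46, 0.26 and 0.15 in endothelial cells (log2 fold change -4.77 ± 0.51, edgeR adjusted p = 0.0033). In mesenchymal cells the log2 fold change was -0.38, and the difference between the classes did not pass (interaction -4.48, adjusted p = 0.189).

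The next question was whether endothelial programmes moved with genotype. Gene lists for vessel identity, signalling and inflammation were counted against all genes, whose median log2 fold change was 0.004, with 9.58% higher and 11.5% lower at an unadjusted p under 0.05 and 11.5% and 11% of genes without overlap between the groups. No gene of any list passed the adjusted threshold of the edgeR test apart from Nlrp3 and 6 sex-linked genes, so the counts at an unadjusted p are given for each list.

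No gene of the endothelial identity list passed. Of its 31 genes outside the rule, 6 were higher and 1 lower at an unadjusted p under 0.05, with a median log2 fold change of 0.12. Without wild-type replicate 3, 9 of all 35 genes of the list passed higher and 1 lower, beside 9.85% and 11.1% of all genes. These 35 include the rule genes that chose the cells. The count was not repeated without them, so it carries no conclusion. Plvap stood at 1083, 1225 and 941 scaled CPM against 912, 884 and 977 (log2 fold change -0.23 ± 0.14, edgeR adjusted p = 0.360), with overlap. Ptprb, the phosphatase that restrains the angiopoietin receptor, stood at 302, 351 and 401 against 460, 507 and 465 (0.44, adjusted p = 0.144), without overlap. Icam2, a constitutive ligand for leukocyte integrins, stood at 441, 428 and 308 against 285, 255 and 331 (-0.44, adjusted p = 0.185).

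Among vessel subtypes, the capillary and fatty acid uptake list had 3 of 17 genes higher and 1 lower at an unadjusted p under 0.05 (median 0.17), the arterial list 3 and 2 of 17 (0.09) and the venous and venular list 2 and 1 of 13 (0.30). Fabp4 stood at 8689, 11042 and 8909 against 15843, 7590 and 11803 (log2 fold change 0.30 ± 0.26, edgeR adjusted p = 0.510), with the highest and the lowest value both in the knockout group. Vwf stood at 89.0, 74.8 and 52.5 against 96.2, 87.7 and 84.1 (0.30 ± 0.18, adjusted p = 0.343). The nearest to the threshold was Btnl9, a butyrophilin-like gene of capillaries, at 21.6, 33.0 and 21.1 against 50.4, 56.8 and 52.2 (1.05 ± 0.18, edgeR adjusted p = 0.0616), without overlap. Nr2f2, the transcription factor gene of venous identity, stood at 117, 119 and 149 against 218, 216 and 172 (0.65, adjusted p = 0.114), and Ackr1 at 90.4, 83.0 and 95.7 against 110, 197 and 121 (0.67, adjusted p = 0.144). Neither venous gene overlapped between the groups.

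The lymphatic list had no gene higher and 1 of 11 lower at an unadjusted p under 0.05 (median -0.06). That gene was Nts, at 466, 246 and 387 against 128, 71.2 and 191 (log2 fold change -1.48 ± 0.33, edgeR adjusted p = 0.114), without overlap, although within these cells it went with the arterial panel. Prox1 stood at 24.8, 14.2 and 33.3 against 17.2, 23.4 and 48.0. Ccl21a varied more than 6-fold between libraries, at 696, 306 and 609 against 113, 198 and 567. The marrow sinusoid list had 1 higher and 1 lower of 10 (median 0.02).

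Sprouting genes were led by Esm1, a tip-cell proteoglycan, at 28.3, 33.1 and 37 against 50.9, 223 and 62.8 (log2 fold change 1.77 ± 0.49, edgeR adjusted p = 0.130); the groups did not overlap, and knockout replicate 2, the library with 1131 CPM of chondrocyte markers, was far above the other libraries. The part of those markers was not tested. Of the 20 genes in the tip-cell and angiogenic list, 5 were higher and 2 lower at an unadjusted p under 0.05 (median 0.20). Aplnr, the apelin receptor, stood at 512, 536 and 569 against 761, 605 and 782 (0.41, adjusted p = 0.161), and Adm, or adrenomedullin, at 40.7, 40.1 and 29.0 against 21.1, 24.4 and 15.5 (-0.87, adjusted p = 0.12). Both separated the groups, in opposite directions.

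Among receptors and ligands of vessel growth, no gene passed. In the VEGF and angiopoietin list 2 of 16 genes were higher and 1 lower at an unadjusted p under 0.05 (median 0.17). Kdr stood at 382, 420 and 513 against 430, 512 and 527 and Flt1 at 337, 392 and 405 against 364, 552 and 448, both with overlap. The Notch list had 5 of 14 genes higher and none lower (median 0.29): the ligand gene Dll1 stood at 21.0, 23 and 29.0 against 38.1, 31.6 and 34.0 (edgeR adjusted p = 0.144), and the tip-cell ligand gene Dll4 at 56.4, 57.8 and 72.6 against 62.3, 110 and 101 (adjusted p = 0.174), with overlap for Dll4. In the BMP and TGF-β list 1 of 17 was higher and 1 lower (median -0.03), and Bmp2, an osteogenic ligand, stood at 73.3, 65.3 and 90.7 against 53.0, 36.0 and 34.8 (-0.88 ± 0.19, adjusted p = 0.106), without overlap.

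Junction, basement membrane and vascular tone genes were counted next, and none passed. The junction list had 1 of 18 genes higher and none lower at an unadjusted p under 0.05 (median 0.18), the basement membrane list 1 of 16 and none (0.06), and the list of vascular tone, coagulation and flow response 3 and 2 of 22 (0.13). Without wild-type replicate 3, 4 junction, 6 basement membrane and 4 vascular tone genes passed higher, beside 9.85% of all genes. In that fit 1 vascular tone gene passed lower. Cldn5 stood at 474, 409 and 520 against 444, 356 and 576, and Klf2, the flow-induced transcription factor gene, at 439, 361 and 745 against 444, 480 and 661. Both overlapped. Calcrl, the receptor for adrenomedullin and CGRP, stood at 172, 159 and 223 against 299, 258 and 234 (log2 fold change 0.52, edgeR adjusted p = 0.144), and Procr, the protein C receptor, at 89.8, 89.6 and 74.9 against 63.7, 56.0 and 70.8 (-0.42, adjusted p = 0.151).

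The inflammasome matures IL-1β, and the gene for the IL-1 receptor was well expressed in endothelial cells. Il1r1 stood at 85.8, 69.5 and 88.4 scaled CPM against 103, 97.9 and 78.7 (log2 fold change 0.20 ± 0.15, edgeR adjusted p = 0.436), with overlap. On the unscaled scale endothelial cells held it at 64.1 to 107 and mesenchymal cells at 71.1 to 186, against at most 4.94 in macrophages and neutrophils. The co-receptor Il1rap stood at 7.00 to 11.3 in endothelial cells. The decoy Il1r2 stood at 7.66, 10.4 and 3.63 against 4.65, 2.83 and 2.31 scaled CPM (-1.25, adjusted p = 0.152), at levels far below those of neutrophils, where it reached 95.5 to 491 unscaled.

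Of 28 genes tested in the IL-1 and NF-κB list, 2 were higher and 5 lower at an unadjusted p under 0.05 (median -0.05). The lower genes included chemokines: Ccl2, which draws monocytes, stood at 99.8, 71.0 and 70.0 against 49.3, 25.5 and 30.3 (log2 fold change -1.20 ± 0.24, edgeR adjusted p = 0.0813), and Cxcl1, which draws neutrophils, at 197, 166 and 75.9 against 69.5, 29.0 and 47.3 (-1.60 ± 0.36, adjusted p = 0.115). Neither overlapped between groups. Nfkbia, the inhibitor that NF-κB induces, stood at 713, 629 and 433 against 371, 317 and 446 (-0.65, adjusted p = 0.144), with overlap. Adhesion genes induced by IL-1 showed no such order: Icam1 stood at 135.4, 117 and 146 against 139, 146 and 129, Sele at 73.9, 47.3 and 130 against 96.2, 167 and 88.7, and Vcam1 at 57.4, 50.7 and 62.4 against 70.9, 71.0 and 34.2.

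In the leukocyte adhesion list 2 of 14 genes were higher and 2 lower at an unadjusted p under 0.05 (median 0.09), and in the chemokine list 3 and 2 of 14 (0.22). Relative to each gene's mean over libraries, the chemokine median was 0.51 log2 units in knockout replicate 2, the library with 1131 CPM of chondrocyte markers. It was -0.03 and 0.08 in knockout replicates 1 and 3 and -0.11 to -0.04 in wild type. The part of those markers was not tested. Glycam1 stood at 77.8, 27.6 and 30.7 against 13.7, 7.71 and 17.1 (log2 fold change -1.79 ± 0.42, edgeR adjusted p = 0.12), and Cx3cl1, or fractalkine, at 4.32, 5.57 and 4.95 against 11.2, 12.9 and 8.01 (1.07 ± 0.25, adjusted p = 0.12). Both separated the groups. Cxcl2 stood at 210, 218 and 66.3 against 353, 19.0 and 40.3, and Il1b at 19.4, 27.5 and 13.2 against 100.4, 14.9 and 15.2. The highest value of both lay in knockout replicate 1, the library with 905 CPM of macrophage markers, whose part was not tested; Cxcl2 was also high in wild-type replicates 1 and 2.

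Levels of the other inflammasome genes varied. Txnip, a redox protein that can bind NLRP3, stood at 290 to 451 scaled CPM and Nek7, a kinase that NLRP3 needs for assembly, at 43.4 to 68.6. Pycard, the adaptor, stood at 14 to 42.2 unscaled CPM in endothelial cells and 272 to 302 in macrophages, Casp1 at 3.66 to 10.5 against 33.3 to 48.2, and Il18 at no more than 1.40 against 41.7 to 65.5. P2rx7, the ATP-gated channel upstream of NLRP3, stood at 11.2, 11.3 and 16.8 scaled CPM against 23, 20.6 and 15.2 (log2 fold change 0.61, edgeR adjusted p = 0.176), with overlap. Of the 10 inflammasome genes tested, 2 were higher and 1, Nlrp3, was lower at an unadjusted p under 0.05 (median 0.39). Relative to each gene's mean over libraries, the median of this list was 0.47 log2 units in knockout replicate 1, the library with 905 CPM of macrophage markers, and -0.04 and -0.06 in the other two knockout libraries, against -0.12 to -0.06 in wild type. The part of the macrophage markers was not tested.

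Interferon-response genes were lower in median (-0.38), with 10 of 25 lower and none higher at an unadjusted p under 0.05. Ifitm3, an antiviral membrane protein gene, stood at 4425, 3815 and 2443 against 2368, 2122 and 2133 (log2 fold change -0.69, edgeR adjusted p = 0.144). Irf7 stood at 75.2, 62.6 and 22.1 against 22.8, 21.9 and 22.6 (adjusted p = 0.129), and Ifi27l2a at 186, 139 and 50.2 against 50.4, 42.4 and 32.0 (adjusted p = 0.121). For Irf7 and Ifi27l2a wild-type replicate 3 lay with or next to the knockout libraries, and of the 25 genes only 3, Bst2, Gbp3 and Ifitm3, had no overlap. The antigen presentation list had 6 of 16 lower and none higher (median -0.17), all 6 without overlap: Psmb8, an immunoproteasome subunit gene, stood at 254, 230 and 174 against 162, 128 and 132 (-0.64, adjusted p = 0.123), and B2m at 1221, 1326 and 1407 against 1163, 997 and 927 (-0.36, adjusted p = 0.194). Without wild-type replicate 3, 2 of these 16 genes passed the adjusted threshold lower and none higher, beside 11.1% of all genes lower in that fit.

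For cell division, too, wild-type replicate 3 stood with the knockout libraries. All 18 genes of the list had a log2 fold change below 0, with a median of -0.59, and 11 were lower at an unadjusted p under 0.05. Ube2c, a ubiquitin-conjugating enzyme gene of mitotic exit, stood at 194, 235 and 127 against 84.1, 81.2 and 89.3 (log2 fold change -1.13 ± 0.20, edgeR adjusted p = 0.0632), and Hells, a chromatin remodeller gene, at 53.6, 44.5 and 39.9 against 26.7, 30.3 and 29.4 (-0.68, adjusted p = 0.106), both without overlap. Mki67 stood at 92.3, 90.6 and 47.2 against 45.6, 71.0 and 51.9 and Birc5 at 166, 191 and 80.8 against 92.3, 90.0 and 94.1, with wild-type replicate 3 among the knockout values. The median of the list, relative to each gene's mean over libraries, was 0.46, 0.50 and -0.23 log2 units in the wild-type libraries and -0.45, -0.04 and -0.24 in the knockout libraries. The share of dividing-panel cells, at equal depth, was 15.5, 15.5 and 10.5% against 14.5, 10.7 and 10.6% and overlapped between the groups. These cells were deeper than the rest in 5 libraries, at medians of 13524 to 19378 against 7184.5 to 10651 UMIs, but shallower in knockout replicate 1, at 3431 against 5054, whose part in the summed counts was not tested. Without wild-type replicate 3, 11 of the 18 genes passed the adjusted threshold, as did 11 of the 25 interferon genes, beside 11.1% of all genes lower in that fit. Both lists thus depend on whether that library is included.

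The hypoxia and glycolysis list had 5 of 17 genes lower and 1 higher at an unadjusted p under 0.05 (median -0.03). Without wild-type replicate 3, 8 of the 17 passed the adjusted threshold, all lower, beside 11.1% of all genes lower in that fit. Gapdh stood at 1637, 1609 and 899 against 621, 714 and 801 (log2 fold change -0.96, edgeR adjusted p = 0.12), and Ldha, or lactate dehydrogenase A, at 538, 525 and 430 against 337, 413 and 398 (-0.38, adjusted p = 0.176), both without overlap. Genes that respond to tissue dissociation had 4 of 18 lower and 1 higher (median -0.03): Atf3 stood at 169, 111 and 149 against 84.8, 61.7 and 101 (-0.78, adjusted p = 0.126), while Fos, at 393, 366 and 456 against 362, 371 and 571, overlapped.

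**Figure D5:**
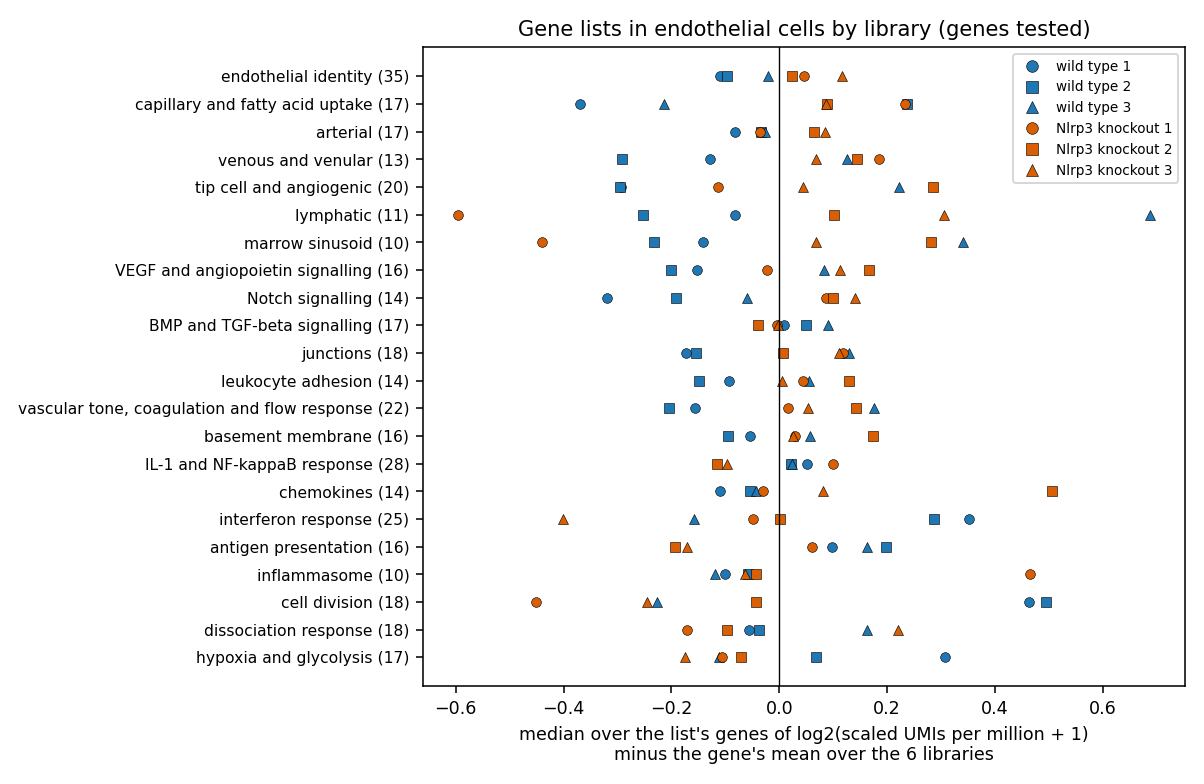
Median over the tested genes of each list (numbers in brackets) of log2 scaled CPM plus 1, minus the gene's mean over the 6 libraries (x axis), with 1 point per library. Wild-type replicate 3 lies at -0.23 for cell division and -0.16 for interferon response, with the knockout libraries and not with wild-type replicates 1 and 2 (0.46 and 0.50, and 0.35 and 0.29).

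Whether the genotype difference itself differed between endothelial and mesenchymal cells was tested as an interaction, with the library as a block. Of 13526 genes, 2 passed (0.0148%), and 958 had an unadjusted p under 0.05. Values of single libraries in this paragraph are unscaled CPM of the class. Per3, a period gene of the circadian clock (chr4:151003652-151044665), stood at 13.3, 12.5 and 18 against 21.7, 19.5 and 19.3 in endothelial cells and at 27.8, 17.3 and 23.7 against 5.63, 4.75 and 6.24 in mesenchymal cells (interaction 2.42 ± 0.22 log2 units, edgeR adjusted p = 0.0387). In endothelial cells the groups lay apart on this scale but overlapped after TMM scaling, and in mesenchymal cells Per3 was lower in the knockout libraries (log2 fold change -2.12, adjusted p = 0.0167). Hpgd, the enzyme that inactivates prostaglandins (chr8:56294585-56321043), stood at 45.8, 111 and 25.6 against 19.1, 16.6 and 17.1 in mesenchymal cells, without passing there (log2 fold change -1.88, edgeR adjusted p = 0.327). In endothelial cells it stood at 0.90, 1.64 and 0.67 against 2.1, 2.26 and 2.25, from 2 to 14 UMIs a library, with free RNA at 8.25 to 33.9 CPM and macrophages at 0.15 to 6.37 in wild type and 28.8 to 38.2 CPM in knockout, whose part was not tested (interaction 2.81 ± 0.28, adjusted p = 0.0387). Neither gene passed within endothelial cells, at adjusted p-values of 0.268 and 0.329, and no interaction passed when wild-type replicate 1 or 2 or knockout replicate 1 or 2 was left out; Per3 and Hpgd passed without wild-type replicate 3, and without knockout replicate 3 only Hp, a gene for haptoglobin, passed.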

How the data were processed

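The libraries were prepared with 10x Genomics 3′ chemistry from pooled entheses, and the authors deposited raw gene-by-barcode count matrices, in which each count is a UMI. The processing notes name Cell Ranger 2.1.1 and the mouse build mm10, whereas the file headers name version 4 of Cell Ranger. Barcodes were filtered, classified and thinned in Python 3.11.15 (numpy 2.4.6, pandas 2.3.3), with a fixed seed. No doublet caller was run; fits without cells above the 95th percentile of UMIs and without cells holding mural, C1q or over 1% hemoglobin UMIs stand in for it. UMIs were summed per library over endothelial cells, expressed as CPM, and tested with edgeR 4.0.16 in R 4.3.3 (filterByExpr, TMM, glmQLFit, genotype as the only term), with an adjusted p threshold of 0.05. Genes that share 3′ sequence cannot be told apart in such counts. DESeq2 1.42.0 was an alternative. Shares were compared by exact permutation over the 20 assignments of libraries. The steps were tested on simulated data, with changes set in well-counted genes and no shift particular to a library. The genotype test recovered 60% of 2-fold and 100% of 4-fold changes. The interaction with mesenchymal cells recovered 11% and 91%, so an interaction that did not pass says little about 2-fold differences.

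Genes named between genotypes were up to 12 in each direction with adjusted p under 0.05, a mean of at least 20 CPM and no overlap, largest change first, predicted genes left out. Genes named between vessel classes were up to 10 with the largest median difference. The genes of the lists could be named whatever their result. Cells, gene lists and panels were chosen with earlier results of these data known. Comparison classes were limited to 2000 cells a library for shares. Free RNA was estimated from barcodes with at most 100 UMIs. The study counts 3 independent replicates a genotype; the entheses were pooled and which mice each library held is not given in the sources used here, so p-values measure the spread between libraries. Gene positions are from the GRCm38 annotation.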

Additional observations from a re-analysis of the deposited data

Results flagged for a closer look

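The genotype difference was tested for a difference between endothelial cells and another class (edgeR interaction, library as a block). Against macrophages 13 of 13068 genes passed, of which the 4 named in the report are given here, and against mesenchymal cells 2 of 13526 passed. Gmfg and Guk1 were named by size and level, and Ccl2 and Hells were picked from the gene lists. The other genes were Sgo2a, Rgl1, Tyms, Hba-a2, Anxa6, Grap, Igha, Cpne8 and Mid1. None of the 4 given here passed against mesenchymal cells (edgeR adjusted p from 0.706 to 0.904). The comparison with macrophages was not repeated with single libraries left out. All values of single libraries below are unscaled CPM of the class, wild-type replicates 1, 2 and 3 and then knockout replicates 1, 2 and 3. For Gmfg the endothelial difference minus the macrophage one was 1.17 log2 units (adjusted p = 0.0247): endothelial cells held 58.8, 43.9 and 43 and then 172, 137 and 162, and macrophages 265, 265 and 192 and then 345, 335 and 331. For Guk1 it was -0.78 log2 units (adjusted p = 0.0466), with endothelial cells at 121, 114 and 108 and then 76.7, 78.1 and 72.6, and macrophages at 67.3, 66.9 and 54.6 and then 75.0, 65.7 and 68.6. Within endothelial cells Gmfg and Guk1 passed (edgeR adjusted p = 0.00526 and 0.0484), and within macrophages neither did (0.307 and 0.992). In mesenchymal cells Guk1 stood at 117, 116 and 114 and then 82.8, 72.3 and 77.2 (log2 fold change -0.66, edgeR adjusted p = 0.111). The endothelial difference minus the mesenchymal one was -0.08 log2 units for Guk1 (edgeR adjusted p = 0.904).

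For Ccl2 the endothelial difference minus the macrophage one was -1.64 log2 units (adjusted p = 0.0203). Endothelial cells held 91.1, 65.5 and 70.6 and then 49.4, 27.9 and 31.7, and macrophages 208, 239 and 209 and then 413, 282 and 264, so each knockout library was above the wild-type libraries in macrophages and below them in endothelial cells. The genotype difference passed within neither class (edgeR adjusted p = 0.0813 in endothelial cells and 0.294 in macrophages). Free RNA held Ccl2 at 138 to 339 CPM, and its part was not tested. For Hells the endothelial difference minus the macrophage one was -1.25 log2 units (adjusted p = 0.0369), with endothelial cells at 49, 41.1 and 40.3 and then 26.8, 33.3 and 30.8, and macrophages at 14.5, 14.4 and 16.7 and then 19.0, 27.2 and 26.9. Hells, too, passed within neither class (edgeR adjusted p = 0.106 in endothelial cells and 0.157 in macrophages). Against mesenchymal cells its difference was -0.42 log2 units and did not pass (edgeR adjusted p = 0.756). The dividing panel marked 5.64%, 6.37% and 7.10% of wild-type macrophages and 9.36%, 10.1% and 9.95% of knockout macrophages. The part of these shares in the Hells difference was not tested.

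Against mesenchymal cells, the endothelial difference minus the mesenchymal one was 2.42 log2 units for Per3 and 2.81 for Hpgd (adjusted p = 0.0387 for both). Per3 passed within mesenchymal cells and Hpgd passed in neither class, and Hpgd rested on 52 endothelial UMIs in all.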

How the results depend on the processing

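The number of genes that differed between genotypes was 31 as reported. It rose to 673 with no filter on low counts and to 426 with DESeq2, which shared 15 of the 31 and gave no adjusted p for the other 16. It ran from 12 to 2553 when each library was left out in turn; these extremes came without knockout replicate 3 and without wild-type replicate 3, and without wild-type replicate 1 or knockout replicate 2 it was 20. The other settings gave 24 to 46 calls. With the replicate number as a block, 38 genes passed, 24 of them among the 31. Same-numbered libraries correlated at 0.027, -0.159 and -0.063 in their deviations from the group means. With group means of 3 libraries, these values cannot decide whether the numbers mark pairs.

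The interaction with mesenchymal cells gave 2 genes, and 0 to 4 when each library was left out (4 without wild-type replicate 3, 0 by edgeR without wild-type replicate 1 or 2 or knockout replicate 1 or 2, where 565, 663, 908 and 820 genes had an unadjusted p under 0.05); against macrophages in place of mesenchymal cells it gave 13. The difference in endothelial share turned to -1.34 percentage points over cells without Ptprc and with under 1% S100a8 and S100a9 UMIs (exact permutation p = 0.7). When each library was left out of the unthinned rule it ran from -0.434 to 0.698, below 0 without wild-type replicate 3 (-0.317) or knockout replicate 3 (-0.434). With the rule applied after thinning to 1000 UMIs, the shares were 1.36% and 1.96%, a difference of 0.595 (exact permutation p = 0.3). No difference in the shares with Plvap, Vwf or Fabp4 changed direction. None of the named genes changed direction in 18 alternatives. The causes were not tested. RLE size factors in place of TMM moved the all-gene median by 0.005 log2 units.

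The knockout libraries were shallower per endothelial cell, wild-type replicate 3 held 219 endothelial cells, genotype runs with sex, and 3 libraries against 3 limit every exact test to p = 0.1. Intervals on counts would cover counting error only.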
